A study of Mus musculus with 2 samples.

Results

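The genes described here are 10 of the 55536 named genes in the tables, 5 of smooth muscle (Tagln, Cnn1, Smtn, Lmod1 and Mylk) and 5 of pericytes (Pdgfrb, Rgs5, Abcc9, Cspg4 and Notch3). They were chosen by name for a split between the libraries, so the ratios of replicate 2 over replicate 1 given below are the values that picked them and are a description with no test. No threshold was applied to pick them, and all 10 had a mean count of at least 10. Total RNA from heart tissue of B6CASTF1/J male mice, the hybrid of a B6 and a CAST mouse, was sequenced at 10 days of age in 2 libraries that form 1 group. The labels name no treatment, and both libraries started from 300 ng of RNA, were depleted of ribosomal RNA and carried ERCC spike-in RNAs. The labels number the males separately but point to 1 donor record, so the spread reported is that between these samples and may be technical. With no second group the only contrast is between the libraries, and an exact sign-flip test over 2 libraries cannot give a p below 0.5, so none is printed.

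Smooth muscle cells and pericytes are the mural cells of blood vessels. Smooth muscle cells wrap arteries and larger veins and contract through actin, myosin and the kinase that phosphorylates the myosin light chain. Pericytes sit on capillaries, depend on PDGF-B from the endothelium and on Notch signals, and in the heart are known for their KATP potassium channels. The assignment to a cell type is not exclusive, because smooth muscle cells also use Pdgfrb and Notch3, and heart muscle cells use Abcc9 as a KATP channel subunit. In RNA from whole tissue, fewer cells of a type and less RNA per cell cannot be told apart.

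Depth was alike, with a total expected count of 37907585 in replicate 2 and 38851514 in replicate 1. Over the 16728 genes with a mean count of at least 10, the median log2 ratio of replicate 2 over replicate 1 was 0.00 after TMM scaling, which fits 1 factor per library from the bulk of the genes. Ratios are of TMM-scaled counts throughout unless another scale is named, so a gene a little lower in TPM (a level per transcript length, scaled to a fixed sum) in replicate 2 can have a ratio above 0. The biological coefficient of variation between the libraries was 0.147. Markers of the atria and of fat differed by more than any of the 10 genes. All 5 atrial markers were lower in replicate 2, where they summed to 269 TPM against 1504 TPM in replicate 1, and all 5 adipocyte markers summed to 31.2 TPM in replicate 2 and 420 TPM in replicate 1.

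Several of the 10 genes make more than 1 protein form, and the bases that tell the forms apart come from GENCODE M21 transcripts on the mm10 build. Abcc9 encodes the regulatory sulfonylurea receptor SUR2, which ends in alternative last coding exons. The coding parts of those exons are shown because the KATP channel of vessels is known for the SUR2B end and that of heart muscle for the SUR2A end. Both lie on the minus strand and are given 5′ to 3′ in the sense of the gene, with the stop codon in capitals. The downstream exon lies at chr6:142590366-142590503 and the upstream one at chr6:142594005-142594142, with 138 coding bases each.
Abcc9 downstream end: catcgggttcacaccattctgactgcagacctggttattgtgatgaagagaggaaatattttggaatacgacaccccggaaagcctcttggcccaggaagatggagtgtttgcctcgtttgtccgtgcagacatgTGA
Abcc9 upstream end: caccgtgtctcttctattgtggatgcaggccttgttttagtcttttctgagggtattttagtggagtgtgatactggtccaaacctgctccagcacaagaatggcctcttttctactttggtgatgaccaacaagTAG
Transcripts with the upstream exon encode proteins of 1511, 1533 or 1546 residues, and only the longest was compared with the downstream protein. Those proteins have 1546 residues each and are identical over the first 1504, so that only the last 42 differ. Of these 42 residues, 31 in the downstream tail equal those at the end of Abcc8 (SUR1), against 14 in the upstream tail, and 14 are shared between the tails. SUR2B is known for an end that resembles SUR1, so the transcript with the downstream exon is called the SUR2B-type form here and the 4 with the upstream exon the SUR2A-type forms.

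Mylk encodes myosin light chain kinase, and a start site inside the gene gives telokin, a small protein of smooth muscle made only of the end of the kinase. Its first coding bases, on the plus strand at chr16:34995116-34995203, are shown with the start codon in capitals, because they mark the place where the smaller protein begins within the kinase.
Mylk telokin start: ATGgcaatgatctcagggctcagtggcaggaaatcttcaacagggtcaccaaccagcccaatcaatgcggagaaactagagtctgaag
All 159 residues of this form are the last 159 of the 1950 residues of the long kinase. No other transcript of Mylk in the tables carried an annotated coding sequence.

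Upstream sequence was looked at in RefSeq promoters of the GRCm38.p6 build, each a window of 300 bases, which held an entry for 8 of the 10 genes. Tagln and Pdgfrb had no entry. Lmod1 and the long form of Mylk are shown as 250 bases up to the annotated start, with the letters CATTCC, the core bound by TEAD factors, in capitals on either strand. They are the smooth muscle genes with a low ratio whose window held one of the motifs searched. Lmod1 lies on the plus strand at chr1:135324563-135324812 and Mylk on the plus strand at chr16:34784700-34784949.
Lmod1: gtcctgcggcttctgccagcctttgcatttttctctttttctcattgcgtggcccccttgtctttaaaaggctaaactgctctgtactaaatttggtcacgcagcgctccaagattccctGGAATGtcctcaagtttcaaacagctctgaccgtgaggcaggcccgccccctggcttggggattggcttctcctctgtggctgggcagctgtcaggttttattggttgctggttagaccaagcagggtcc
Mylk: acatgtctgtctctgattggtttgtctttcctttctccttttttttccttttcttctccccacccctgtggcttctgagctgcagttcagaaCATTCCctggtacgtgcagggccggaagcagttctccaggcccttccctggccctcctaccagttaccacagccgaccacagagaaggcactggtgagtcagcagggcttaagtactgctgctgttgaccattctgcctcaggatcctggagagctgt
In Lmod1 the match reads on the opposite strand and lies at -130 to -125 from the start, and in Mylk it reads on the strand of the gene at -158 to -153.

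The levels of the 10 genes covered a wide range in both libraries. Rgs5, which speeds the shut-off of G-protein signals and is a classical pericyte gene, was the highest at 151 ± 11.7 TPM (SD, n = 2). Abcc9 followed at 89.4 ± 3.25 TPM and Smtn, which encodes the actin-associated protein smoothelin, at 80.7 ± 10.2 TPM (SD, n = 2 each), and their ranges overlapped. The next step held Pdgfrb, the receptor for PDGF-B, at 30.7 ± 3.84 TPM, Tagln, which encodes the actin-binding transgelin (SM22), at 28.5 ± 12.9 TPM, and the receptor gene Notch3 at 21.6 ± 3.52 TPM (SD, n = 2 each). The place of Tagln among them was not settled, since its range overlapped those of Pdgfrb and Notch3. The ranges of Pdgfrb and Notch3 did not overlap, with Pdgfrb the higher in both libraries. Cspg4, which encodes the surface proteoglycan NG2, reached 16.3 ± 2.57 TPM and Mylk 14.9 ± 3.66 TPM (SD, n = 2 each), again with overlapping ranges, and in the other deposited quantification Mylk stood above Cspg4 in both libraries. The lowest levels were those of Cnn1, which encodes calponin 1, an actin-binding inhibitor of contraction, at 3.29 ± 1.06 TPM, and of Lmod1, which encodes the actin filament nucleator leiomodin 1, at 0.955 ± 0.431 TPM (SD, n = 2 each).

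**Figure D1:**
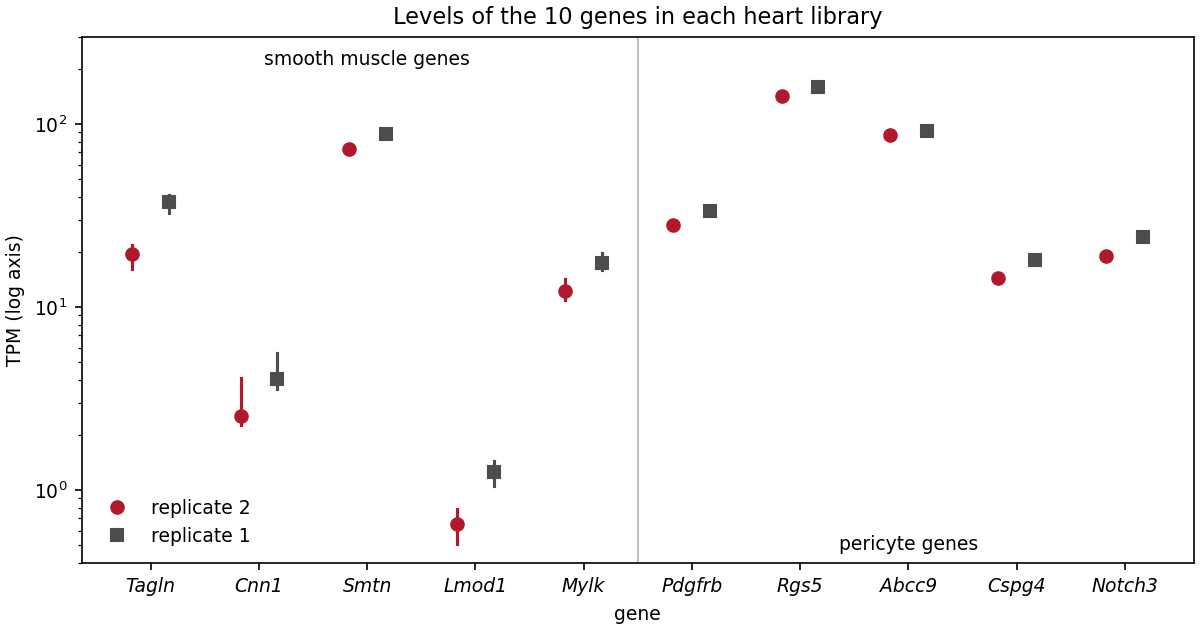
Level of each of the 10 genes in TPM on a log axis, with replicate 2 as circles and replicate 1 as squares and the authors' deposited credibility bounds as bars. Smooth muscle genes span from Lmod1, with a mean of 0.955 TPM, to Smtn, with a mean of 80.7 TPM, and pericyte genes from Cspg4, at 16.3 TPM, to Rgs5, at 151 TPM.

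All 5 smooth muscle genes were lower in replicate 2, and 4 of them passed the limit used here for a clear difference, 0.32 on the log2 scale. Of the 16728 genes tested, 13.3% passed that limit downward and 14.4% upward, and of the 4829 with a mean count of at least 1000, 4.54% downward and 5.59% upward. None of the 10 genes was over 2-fold, against 2.39% of the genes tested lower and 2.15% higher. Tagln had 19.4 TPM (612 counts) in replicate 2 and 37.6 TPM (1116 counts) in replicate 1. Its log2 ratio was -0.73, with an exact 95% interval for counting error from -0.88 to -0.59, or 1.66-fold lower in replicate 2. The deposited credibility bounds of its level did not overlap, at 16.1 to 21.9 TPM in replicate 2 and 32.6 to 41.0 TPM in replicate 1. Among the 10 genes only the bounds of Cnn1 overlapped, so this did not set Tagln apart. The gene lies on the minus strand at chr9:45929619-45936058 and overlaps Pcsk7 on the opposite strand, which had 847 counts in replicate 2 and 949 in replicate 1. Whether the counting used strand was not given in the sources used here, so some reads could belong to either gene.

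Lmod1 (chr1:135324807-135368065, plus strand) showed a ratio like that of Tagln at a much lower level. It had 0.65 TPM (80 counts) in replicate 2 and 1.26 TPM (147 counts) in replicate 1, a log2 ratio of -0.74 with an interval from -1.16 to -0.34. Cnn1 (chr9:22099216-22109630, plus strand) had 2.54 TPM (113 counts) in replicate 2 and 4.04 TPM (193 counts) in replicate 1. Its log2 ratio was -0.64, with an interval from -0.99 to -0.30. At these counts the intervals of Lmod1 and Cnn1 covered each other's ratio and those of Tagln and Mylk, so neither gene could be ranked against them. The credibility bounds of Cnn1 overlapped, at 2.26 to 4.12 TPM in replicate 2 and 3.55 to 5.64 TPM in replicate 1.

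Mylk (chr16:34745210-35002420, plus strand) had 12.3 TPM (1566 counts) in replicate 2 and 17.5 TPM (2351 counts) in replicate 1. The log2 ratio was -0.45, with an interval from -0.55 to -0.36, or 1.37-fold lower in replicate 2, and this interval did not overlap that of Tagln. The antisense gene E130310I04Rik within it held 61 counts in replicate 2 and 52 in replicate 1.

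Smtn (chr11:3517523-3540612, minus strand) stood apart from the other 4 smooth muscle genes. It had 73.5 TPM (4104 counts) in replicate 2 and 87.9 TPM (4787 counts) in replicate 1. The log2 ratio was -0.09, with an interval from -0.15 to -0.03, and 34.9% of the genes tested had a lower ratio. By comparison, 4.17% had a lower ratio than Tagln, 4.07% than Lmod1, 5.40% than Cnn1 and 8.81% than Mylk.

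The 5 pericyte genes lay close to a ratio of 1, with none past the limit in either direction apart from Notch3 in TPM, at -0.33. Pdgfrb (chr18:61045150-61085061, plus strand) had 27.9 TPM (4752 counts) in replicate 2 and 33.4 TPM (5355 counts) in replicate 1, with a log2 ratio of -0.04 and an interval from -0.10 to 0.02. Cspg4 (chr9:56865033-56899870, plus strand) had 14.5 TPM (2921 counts) in replicate 2 and 18.1 TPM (3292 counts) in replicate 1, also with a log2 ratio of -0.04 and an interval from -0.11 to 0.03. For both genes the interval held 0, so no difference in scaled counts was detectable at this depth. Their deposited TPM bounds did not overlap and were lower in replicate 2, on a scale where the median log2 ratio of all genes was -0.20.

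The other pericyte genes had intervals that left out 0, on either side of it. Notch3 (chr17:32120820-32166852, minus strand) had 19.1 TPM (4789 counts) in replicate 2 and 24.1 TPM (5761 counts) in replicate 1, and its log2 ratio of -0.13 had an interval from -0.19 to -0.08. Rgs5 (chr1:169655501-169695813, plus strand) had 142.7 TPM (17751 counts) in replicate 2 and 159.3 TPM (18792 counts) in replicate 1, and Abcc9 (chr6:142587862-142702315, minus strand) had 87.1 TPM (19083 counts) in replicate 2 and 91.7 TPM (18927 counts) in replicate 1. The log2 ratio of Rgs5 was 0.05, with an interval from 0.02 to 0.08, but it was -0.047 scaled to the total count, -0.012 to the ERCC spike-ins, -0.16 in TPM and -0.040 in FPKM (fragments scaled by gene length and library total). That of Abcc9 was 0.15, with an interval from 0.12 to 0.17, but -0.074 in TPM. An interval without 0 was common, since 18.7% of the genes tested had one below 0 and 18.7% had one above 0, and 29% and 30.4% of those with a mean count of at least 1000.

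Set side by side, the smooth muscle genes had a median log2 ratio of -0.64, in a range from -0.74 to -0.09, and the pericyte genes one of -0.04, in a range from -0.13 to 0.15. The median over all genes tested was 0.00. Summed levels were 108 TPM in replicate 2 and 148 TPM in replicate 1 for the smooth muscle genes, and 291 TPM in replicate 2 and 327 TPM in replicate 1 for the pericyte genes. The ranges of the lists overlapped at Smtn, whose ratio lay above that of Notch3. The ratios of Tagln, Cnn1, Lmod1 and Mylk lay below those of Smtn and all 5 pericyte genes, which is the split that picked them. Scaling by library factors cannot alter that order, since it shifts all genes alike, and it was also the order in the other quantification, with 5 added to each count, in TPM and in FPKM. The scaling mattered for the zero point, since the TPM scale shifted the median of all genes tested by -0.20. Relative to that shift, the log2 ratio of TPM was -0.75 for Tagln, -0.45 for Cnn1, -0.06 for Smtn, -0.66 for Lmod1 and -0.30 for Mylk. On the same scale it was -0.05 for Pdgfrb, 0.04 for Rgs5, 0.13 for Abcc9, -0.12 for Cspg4 and -0.13 for Notch3.

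**Figure D2:**
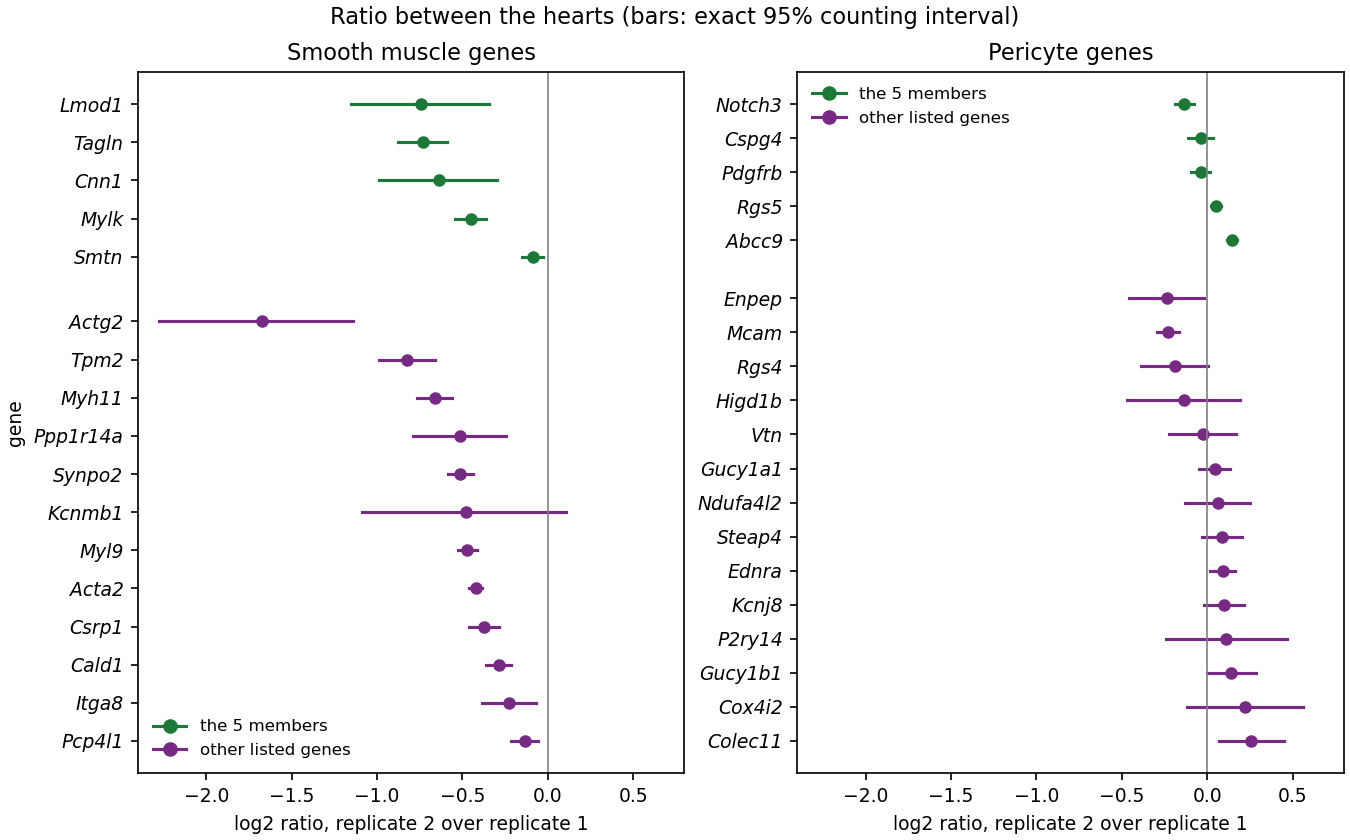
Log2 ratio of replicate 2 over replicate 1 for smooth muscle genes (left) and pericyte genes (right), with the 10 chosen genes on top in green, other listed genes below in purple, and bars for the exact 95% interval of counting error. The smooth muscle points all lie left of 0, from Actg2 at -1.68 to Smtn at -0.09, while the pericyte points lie on both sides of 0, between Enpep at -0.24 and Colec11 at 0.26.

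The forms of Abcc9, Mylk and Smtn were compared as shares of the TPM of each gene. For Abcc9 the SUR2B-type form took 50.5% in replicate 2 and 49.7% in replicate 1, and the SUR2A-type forms took 44.0% in replicate 2 and 44.8% in replicate 1. Both ends were therefore present at like levels in these hearts, at 44.0 TPM in replicate 2 and 45.6 TPM in replicate 1 for SUR2B-type and 38.3 TPM in replicate 2 and 41.0 TPM in replicate 1 for SUR2A-type. The other quantification gave the SUR2B-type form less, 41.3% in replicate 2 and 41.5% in replicate 1, against 49.9% in replicate 2 and 48.1% in replicate 1 for SUR2A-type, so the order of the ends depended on the quantification. The log2 ratio was 0.17 for SUR2B-type and 0.12 for SUR2A-type transcripts, so the ends of the gene differed little between the libraries. In the other quantification the order was reversed, with 0.08 for SUR2B-type and 0.17 for SUR2A-type transcripts.

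For Mylk, the long kinase was lower in replicate 2, with 5.10 TPM (1262 counts) there and 8.66 TPM (2022 counts) in replicate 1. Its log2 ratio was -0.55, and -0.54 in the other quantification. Telokin had 2.56 TPM (125 counts) in replicate 2 and 3.30 TPM (152 counts) in replicate 1, a log2 ratio of -0.15, or -0.34 in the other quantification. The long kinase held most of the counts of the gene in both libraries and had the lowest ratio of the annotated classes in both quantifications. It was the only annotated kinase form, so these values cannot tell whether its reads came from another kinase form outside the annotation. Telokin took 20.9% of the TPM of the gene in replicate 2 and 18.9% in replicate 1, but 31.6% in replicate 2 and 31.3% in replicate 1 in the other quantification. The remaining TPM of Mylk came from 6 transcripts with no complete coding sequence, 37.6% in replicate 2 and 31.5% in replicate 1.

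Smtn is known for a short and a long smoothelin, the long one being typical of vessels. The short form of the annotation, with 436 residues, took 51.7% in replicate 2 and 54.8% in replicate 1, and the 4 long forms of 921 to 946 residues together took 24.5% in replicate 2 and 25.3% in replicate 1. The short form shares its last 226 residues with the long forms of 921 residues and 0 with those of 923 and 946 residues. The log2 ratio was -0.13 for the short form and -0.10 for the long forms, so both forms lay near the ratio of the gene as a whole.

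**Figure D3:**
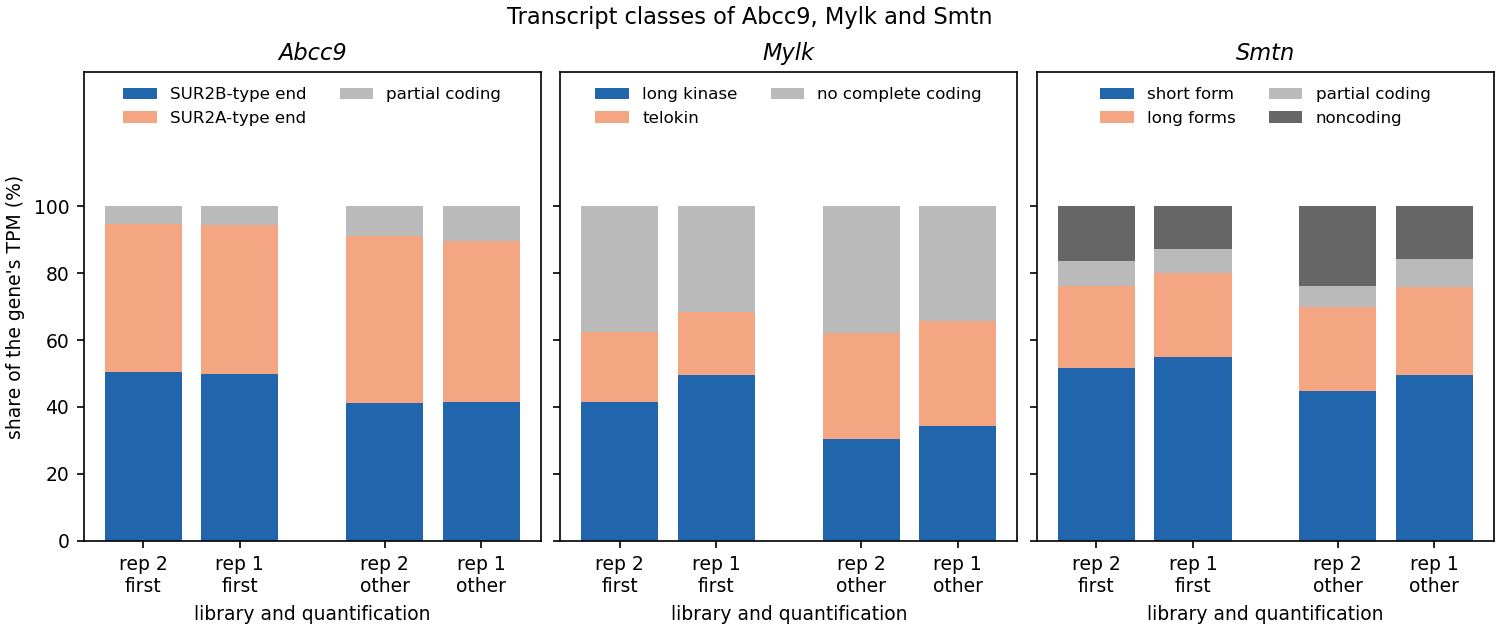
Share of the TPM of Abcc9, Mylk and Smtn, in percent, taken by each class of transcript in each library, for the first quantification (left pair of bars) and the other one (right pair). The SUR2B-type share of Abcc9 is 50.5% in replicate 2 and 49.7% in replicate 1 in the left pair and 41.3% in replicate 2 and 41.5% in replicate 1 in the right pair, and the long kinase of Mylk takes 41.6% in replicate 2 and 49.6% in replicate 1 in the left pair.

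The other chosen genes were dominated by a single form or could not be resolved. Lmod1 has 1 annotated transcript. The leading transcript took 96.6% of Rgs5 in replicate 2 and 97.2% in replicate 1, 98.8% in replicate 2 and 100% in replicate 1 of Notch3, and 99.0% in replicate 2 and 100% in replicate 1 of Pdgfrb. For Cspg4 the leading transcript took 59.6% in replicate 2 and 51.6% in replicate 1, with transcripts that retain an intron as the rest, but in the other quantification it took 81.9% in replicate 2 and 76.4% in replicate 1. A Tagln transcript of 369 bases was given 7.89 TPM in replicate 2 and 15.57 TPM in replicate 1 by the first quantification and 0 by the other, where the full-length transcript of 1595 bases took 96.9% in replicate 2 and 98.3% in replicate 1. The level of Tagln was lower in replicate 2 in both, with 17.5 TPM there and 29.8 TPM in replicate 1 in the other quantification. For Cnn1 the leading transcript differed between the quantifications, and its forms are not compared further.

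Other genes of the same cell types were taken from lists written with results of these data known, so their counts are a description and not independent support. All 12 other smooth muscle genes had a ratio below 0, 9 of them past the limit, with a median log2 ratio of -0.48, and all 12 stayed below 0 in each of the 10 scalings. Acta2, the actin of vascular smooth muscle, had 166 TPM in replicate 2 and 257 TPM in replicate 1 (log2 ratio -0.42), and Myl9, the regulatory myosin light chain that the kinase phosphorylates, had 134.95 TPM in replicate 2 and 218 TPM in replicate 1 (-0.47). The ends of the list were Actg2, the actin of visceral smooth muscle, with 35 counts in replicate 2 and 124 in replicate 1 (-1.68), Tpm2, a tropomyosin, with 453 counts in replicate 2 and 880 in replicate 1 (-0.82), Itga8 (-0.23) and Pcp4l1 (-0.14).

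The 14 other pericyte genes had a median log2 ratio of 0.07, with 5 below 0, 9 above 0 and none past the limit in either direction. But in TPM, where the median of all genes tested was -0.20, 12 were below 0 and 3 past the limit, with a median of -0.16. Mcam, an adhesion molecule of mural and endothelial cells, had 48.9 TPM in replicate 2 and 65.4 TPM in replicate 1 (log2 ratio -0.23). Ednra, the endothelin receptor of mural cells, had 27.2 TPM in replicate 2 and 29.5 TPM in replicate 1 (0.09), and Ndufa4l2 had 16.9 TPM in replicate 2 and 18.6 TPM in replicate 1 (0.06). The ratios of the list ran from -0.24 for Enpep to 0.22 for Cox4i2 and 0.26 for Colec11. For 10 of the 14 the counting interval held 0.

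Of 8 regulators of smooth muscle and mural genes, 3 passed the limit downward and 1 upward, with a median log2 ratio of -0.16, but in TPM 5 passed it downward and 0 upward, with a median of -0.38. Gata6, a transcription factor of heart and vascular smooth muscle, had 64.7 TPM in replicate 2 and 53.8 TPM in replicate 1 (0.47). Myocd, the coactivator through which serum response factor drives smooth muscle and heart muscle genes, had 44.3 TPM in replicate 2 and 51.0 TPM in replicate 1 (0.09, below 0 in TPM), and Srf, that factor itself, had 37.1 TPM in replicate 2 and 55.8 TPM in replicate 1 (-0.40). Of 7 ligands of mural receptors, 1 passed the limit downward and none upward, with a median of -0.18, and in TPM 3 passed it downward, with a median of -0.31. Pdgfb, the ligand of Pdgfrb, had 16.5 TPM in replicate 2 and 20.6 TPM in replicate 1 (-0.12), and Pdgfa had 9.67 TPM in replicate 2 and 14.2 TPM in replicate 1 (-0.24).

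Target genes of Notch receptors lay on the low side in replicate 2. All 6 had a ratio below 0 and 3 passed the limit, with a median log2 ratio of -0.27 and an interval that held 0 for the other 3. Hes1 had 14.7 TPM in replicate 2 and 24.4 TPM in replicate 1 (-0.58), and Heyl, a target in mural cells, had 9.39 TPM in replicate 2 and 13.2 TPM in replicate 1 (-0.34). Hes1 is also controlled by other signals and used by many cell types.

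**Figure D4:**
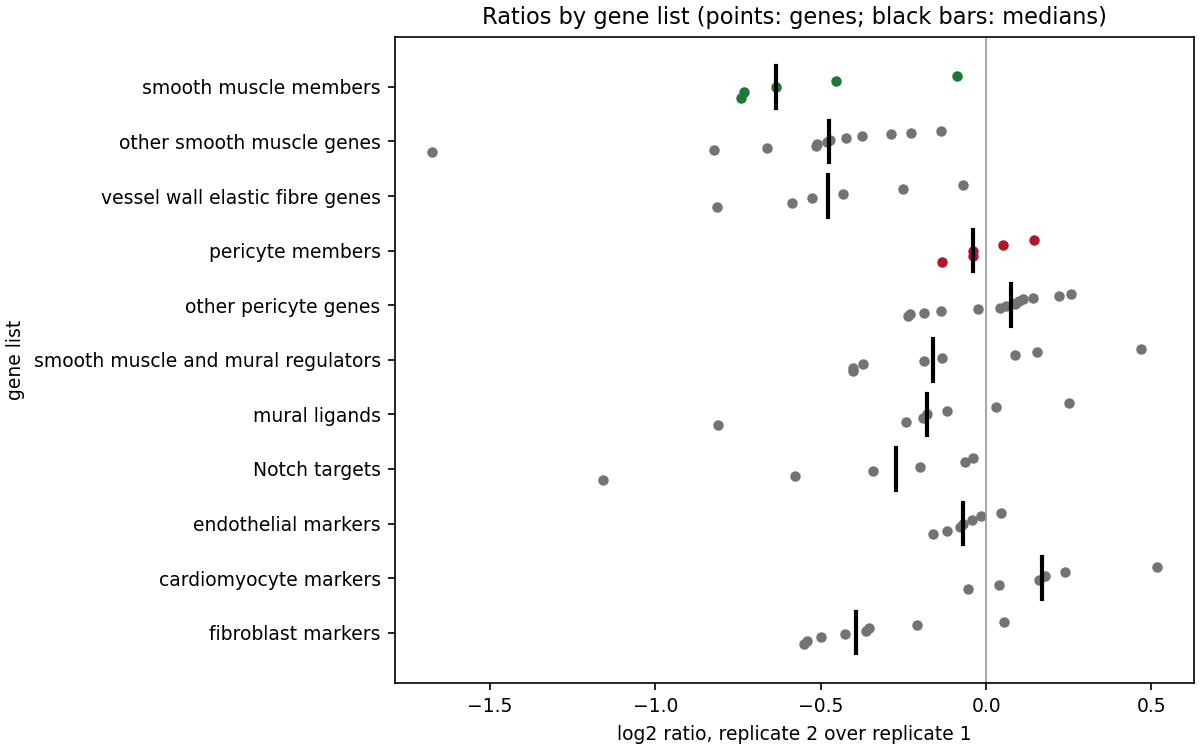
Log2 ratio of replicate 2 over replicate 1 for each gene of the lists (points), with the median of each list as a black bar. The medians are -0.64 for the 5 chosen smooth muscle genes and -0.48 for the 12 others, against -0.04 for the 5 chosen pericyte genes and 0.07 for the 14 others, and the fibroblast list, at -0.39, lies near the smooth muscle lists.

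Markers of other cell types moved with the smooth muscle genes, and their part in the low ratios of Tagln, Cnn1, Lmod1 and Mylk was not tested. Of 8 fibroblast markers, 7 were below 0 and 6 passed the limit, and they summed to 1235 TPM in replicate 2 and 1952 TPM in replicate 1. Col3a1, a fibrillar collagen, had 482 TPM in replicate 2 and 750.2 TPM in replicate 1, and Col1a1 had 242 TPM in replicate 2 and 413 TPM in replicate 1. All 5 atrial markers passed the limit downward, with the lowest ratio for Bmp10, at 46 counts in replicate 2 and 5857 counts in replicate 1. The atrial markers with the highest levels were the hormone gene Nppa, with 116 TPM in replicate 2 and 753 TPM in replicate 1, and Myl7, with 86.6 TPM in replicate 2 and 393 TPM in replicate 1. All 5 adipocyte markers passed it as well, with 5.02 TPM in replicate 2 and 239 TPM in replicate 1 for Ucp1, the uncoupling protein of brown fat, and 24.2 TPM in replicate 2 and 82.2 TPM in replicate 1 for Cidea. None of the fibroblast, atrial or adipocyte markers was at 0 in both libraries.

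All 5 mesothelial markers passed the limit downward, summing to 15.4 TPM in replicate 2 and 32.3 TPM in replicate 1, with Msln at 8.10 TPM in replicate 2 and 16.1 TPM in replicate 1 and Upk3b at 3.51 TPM in replicate 2 and 7.50 TPM in replicate 1. Of 4 Schwann cell markers 3 passed the limit downward, summing to 3.14 TPM in replicate 2 and 11.1 TPM in replicate 1, with Mbp at 105 counts in replicate 2 and 373 counts in replicate 1 and S100b at 17 counts in replicate 2 and 135 counts in replicate 1. Among skeletal muscle markers, the heart also expresses Ckm, at 1215 TPM in replicate 2 and 1360 TPM in replicate 1, and Acta1, at 78.8 TPM in replicate 2 and 93.4 TPM in replicate 1. The 5 markers more particular to skeletal muscle were at or near 0. Mylpf had 9 counts in replicate 2 and 13 counts in replicate 1, Tnnt3 had 7 counts in replicate 2 and 5 counts in replicate 1, and Actn3 had 9 counts in replicate 2 and 12 counts in replicate 1. The fast myosin gene Myh1 had 0 counts in replicate 2 and 1.02 counts in replicate 1, against 0.304 TPM in replicate 2 and 0.221 TPM in replicate 1 in the other quantification. Myh4, another fast myosin gene, was listed at 0 in both libraries, but at 0.0585 TPM in replicate 2 and 0.0257 TPM in replicate 1 in the other quantification.

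Of 7 endothelial markers none passed the limit in either direction, with a median log2 ratio of -0.07, but in TPM all 7 were below 0 and 2 passed it downward, with a median of -0.25. They summed to 324 TPM in replicate 2 and 398 TPM in replicate 1. Cdh5, the junction protein of endothelium, had 104 TPM in replicate 2 and 134 TPM in replicate 1, and Pecam1 had 71.9 TPM in replicate 2 and 92.0 TPM in replicate 1. Of 6 heart muscle markers 5 were above 0, with a median of 0.17 and 1 past the limit upward, although 5 were below 0 in TPM. Myh6, the myosin motor of heart muscle that prevails in grown mice, had 8333 TPM in replicate 2 and 8595 TPM in replicate 1 (log2 ratio 0.18), and Actc1, cardiac actin, had 5747 TPM in replicate 2 and 6943 TPM in replicate 1 (-0.06).

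The upstream windows were searched for the CArG box bound by serum response factor, for TGGGAA, the core bound by the Notch partner RBPJ, and for CATTCC, on both strands. The CArG box was in 0 of the 8 windows of the chosen genes, against 1.63% of 32851 promoters. Tagln and Pdgfrb had no window, so they were not searched. Among the other smooth muscle genes the box was in 1 of 12 windows (Myl9), and among the other pericyte genes in 0 of 15. TGGGAA was in 2 of 8 (Smtn and Abcc9), against 25.6% of all promoters, and CATTCC was in 4 of 8 (Smtn, Lmod1, Mylk and Abcc9), against 14.7%. In Abcc9 the matches to TGGGAA and CATTCC overlap each other. With 8 windows these counts are descriptions, and a window without the letters says nothing of sites elsewhere.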

How the data were processed

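Total RNA-seq of 2 heart libraries was used in 1 group, with replicate numbers taken from the labels. Per the file headers and the labels, the authors worked on mm10 with GENCODE M21. For program names and the strand setting of the counting: not given in the sources used here. Columns have the layout of RSEM output and of kallisto output. The deposited gene and transcript tables hold expected counts, TPM and FPKM per the file headers, with other values being credibility bounds of TPM, and the other deposited table holds estimated counts and TPM. The tables name 55536 genes. The 26248 rows without a gene name were left out, with 3 counts in replicate 2 and 3.89 counts in replicate 1 (7.91e-06% and 1.00e-05% of the total).

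Each expected count was rounded to a whole number, and libraries were scaled with TMM factors (0.967 in replicate 2, 1.03 in replicate 1) in edgeR 4.0.16 under R 4.3.3. The log2 ratio took 0.5 added to each count, and genes with a mean count of at least 10 counted as tested. Exact 95% Clopper-Pearson intervals reflect counting error alone, as there were no molecular identifiers to tell copies of 1 molecule apart, and a count of 0 allows up to 3 counts. A log2 ratio beyond 0.32 in size was counted as past the limit. The ratios were checked on simulated Poisson counts, which have counting error only, so the check does not cover further spread between libraries. No test was possible with 2 libraries in a single group. Transcript classes and protein identities came from translated GENCODE M21 transcripts, read with Biopython 1.88, and promoters from RefSeq (GRCm38.p6).

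The 10 genes and all lists were chosen with earlier results of these data known. A listed marker gene is not reported here. Named from each other list were the highest genes by mean TPM (the 3 highest for smooth muscle and pericyte genes, with both ends of the ratios; the highest relative of each chosen gene; otherwise a pair per list), besides the skeletal muscle markers, Bmp10 (chosen after its values were seen) and overlapping genes. The likeness of other genes to the pattern was not ranked, since 2 libraries give a single ratio per gene. Alternatives were other scalings, including DESeq2 1.42.0 size factors, another added count, no filter, the other quantification, 1 strand for motifs and each library alone.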

Additional observations from a re-analysis of the deposited data

How the results depend on the processing

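Over 10 scalings the log2 ratio stayed below 0 for Tagln (-0.95 to -0.72), Lmod1 (-0.86 to -0.70), Cnn1 (-0.73 to -0.53), Mylk (-0.55 to -0.39), Smtn (-0.26 to -0.07), Notch3 (-0.33 to -0.12), Pdgfrb (-0.26 to -0.02) and Cspg4 (-0.32 to -0.02). Rgs5, at 0.05 with TMM, was -0.047 with the total count, -0.012 with the ERCC spike-ins, -0.16 in TPM and -0.040 in FPKM, and Abcc9, at 0.15, was -0.074 in TPM. The median of the pericyte genes was -0.04 with TMM but -0.14 with the total count, -0.10 with the spike-ins, -0.26 in TPM and -0.14 in FPKM, while that of the smooth muscle genes stayed between -0.73 and -0.53. Their difference was -0.60 under all 6 scalings by library factors, which shift all genes alike and so cannot move it, and -0.58, -0.57, -0.39 and -0.40 in the other quantification, with 5 added to each count, in TPM and in FPKM. The median level of the smooth muscle genes was 21.2 TPM in the other quantification against 14.9, and that of the pericyte genes 38.4 TPM there and 24.8 in FPKM against 30.7. The other quantification gave mean shares of 41.4% against 50.1% for the SUR2B-type form of Abcc9, 31.5% against 19.9% for telokin and 47.2% against 53.2% for short Smtn. Among genes with a mean count of at least 1000, 4.54% passed the limit of 0.32 on the log2 scale downward and 5.59% upward, against 13.3% and 14.4% at 10. On the strand of the gene alone, TGGGAA was in 1 window in place of 2 and CATTCC in 2 in place of 4. The cause was not tested in any of these cases. With each library alone, the median level was 12.3 to 17.5 TPM for smooth muscle and 27.9 to 33.4 TPM for pericyte genes. No paired analysis was possible because there was 1 group with no second group to share replicate numbers. Depth limited Lmod1 and Cnn1 most, with 80 and 113 counts in replicate 2.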

Other observations

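Relatives of the chosen genes were listed as well, 17 in all with 15 at a mean count of at least 10, of which 4 passed the limit of 0.32 on the log2 scale downward and 3 upward (median log2 ratio -0.08). With the total count 6 passed it downward and 2 upward (median -0.18), and in TPM 7 downward and 1 upward (median -0.25). Lmod2, the leiomodin of heart muscle, had 209 TPM in replicate 2 and 144 TPM in replicate 1 (0.75), and Mylk3, the cardiac myosin light chain kinase, had 124 TPM in replicate 2 and 114 TPM in replicate 1 (0.37). Tagln2 and Cnn3, which many cell types use, had ratios below 0. Tagln2 had 48.5 TPM in replicate 2 and 72.2 TPM in replicate 1 (-0.34), and Cnn3 had 36.0 TPM in replicate 2 and 48.7 TPM in replicate 1 (-0.30). Pdgfra, the fibroblast receptor related to Pdgfrb, had 16.7 TPM in replicate 2 and 21.3 TPM in replicate 1 (-0.21). Abcc8, which encodes SUR1, had 27.5 TPM in replicate 2 and 26.8 TPM in replicate 1 (0.28), Notch4 had 21.7 TPM in replicate 2 and 23.6 TPM in replicate 1 (0.07, below 0 in TPM), and Smtnl2 had 15.0 TPM in replicate 2 and 17.1 TPM in replicate 1 (-0.05). The level of Cspg5 was near 0, with 19 counts in replicate 2 and 12 in replicate 1. Its log2 ratio was 0.78, with an interval from -0.32 to 1.97.

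The channel pores that pair with Abcc9 were Kcnj11 (Kir6.2), at 34.0 TPM in replicate 2 and 32.4 TPM in replicate 1 (0.24), and Kcnj8 (Kir6.1), at 15.7 TPM in replicate 2 and 16.9 TPM in replicate 1 (0.10, below 0 in TPM). Of 7 genes that act with Mylk on the myosin light chain, none passed the limit in either direction (median -0.00), though in TPM all 7 were below 0 and 3 passed it (median -0.19). Among them Ppp1cb, the catalytic subunit of the phosphatase, had 178 TPM in replicate 2 and 186 TPM in replicate 1 (0.11, below 0 in TPM), and Rhoa, which restrains that phosphatase, had 103 TPM in replicate 2 and 137 TPM in replicate 1 (-0.20). Elastic fibre genes of the vessel wall were all below 0, 6 of 6, with 4 past the limit and a median of -0.48, near that of the other smooth muscle genes. Eln, elastin, had 202.1 TPM in replicate 2 and 410 TPM in replicate 1 (-0.81), and Fbn1, fibrillin 1, had 74.9 TPM in replicate 2 and 104 TPM in replicate 1 (-0.25). Fibroblasts also make these proteins.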
